A study of Oryza sativa with 8 samples.

Results

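Class III peroxidases are secreted plant enzymes that act in the cell wall and the vacuole. With hydrogen peroxide as the oxidant they couple monolignols into lignin and cross-link phenolics and proteins of the wall, which stiffens it, and in another reaction cycle they release reactive oxygen that can loosen it. Grasses carry large families of these genes, many of them side by side on a chromosome, and roots are a main site of their expression, with members known from root hairs, the elongation zone, the endodermis and the xylem. The 60 rice loci described here were given as a list of locus identifiers for the family. All 60 were found among the 55801 loci of the deposited table. Neither that table nor the gene table used as a reference pairs these identifiers with names, so the family label rests on the list and the single members carry no role of their own here.

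The data are 8 libraries of poly(A) RNA from roots of rice (Oryza sativa), 2 in each of 4 groups. D4_CK and D6_CK are the controls, whose treatment label reads normal, and D4_100X and D6_100X are labelled with a carbon dot treatment, 100X. Carbon dots are nanometre-sized carbon particles, which the series title connects with seed priming. The labels give no cultivar or plant age, and do not say what D4, D6 and 100X stand for or whether the replicates are separate plants or cultures, so the p-values measure only the spread between these libraries, which may be technical. The values are FPKM, a level per gene length and library total. Sequencing depth is unknown, because the whole numbers behind the FPKM had nearly the same sorted values in every library. Among root marker genes, all 6 listed loci were above 0 and summed to between 1801 and 4710 FPKM per library, whereas 9 listed green shoot loci summed to between 0.548 and 2.69 FPKM.

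The members covered a wide range of levels. A mean over the 8 libraries of at least 100 FPKM was reached by 13 loci, 31 lay between 10 and 100 FPKM, 8 between 1 and 10, and 8 below 1. The 10 highest loci held 66.8% of the summed level of the list. LOC_Os02g14440 and LOC_Os02g50770 were listed at 0 in every library, and LOC_Os07g48040 and LOC_Os07g48050 never exceeded 0.0953 FPKM. LOC_Os01g22249, LOC_Os03g13180 and LOC_Os04g59200 also stayed under the filter for testing, which asked for 1 FPKM in at least 2 libraries, with a highest value of 1.45 FPKM among them. The filter left 53 members, which are tested below, among 22794 loci in all. Of the 53, 47 reached 1 FPKM in every library. The other 6 were LOC_Os03g22010, LOC_Os04g59190, LOC_Os06g35490, LOC_Os07g34670, LOC_Os07g34710 and LOC_Os07g44499, and counts over the 53 are given as a description, since some of these entered through the group in which they were high.

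The most abundant member was LOC_Os05g04380. It stood at 857 and 672 FPKM in the 2 D4_CK libraries, at 948 and 622 in D4_100X, at 409.7 and 413 in D6_CK, and at 281 and 279.5 in D6_100X. Each D6 library lay below each D4 library, and the carbon dot libraries at D6 lay below the D6 controls. LOC_Os01g15830 was at 565 and 578 FPKM in D4_CK, 461 and 637 in D4_100X, 289 and 279 in D6_CK, and 237 and 254 in D6_100X, again with no overlap between D4 and D6. LOC_Os06g35520 was at 348 and 578 FPKM in D4_CK, 399 and 578 in D4_100X, 422 and 431 in D6_CK, and 215 and 255 in D6_100X. Here the D6 controls lay within the range of D4, and only the D6 carbon dot libraries lay below it. LOC_Os04g59150 had the opposite course, with 125 and 128 FPKM in D4_CK, 143 and 145 in D4_100X, 358 and 336 in D6_CK, and 557 and 500.3 in D6_100X.

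**Figure D1:**
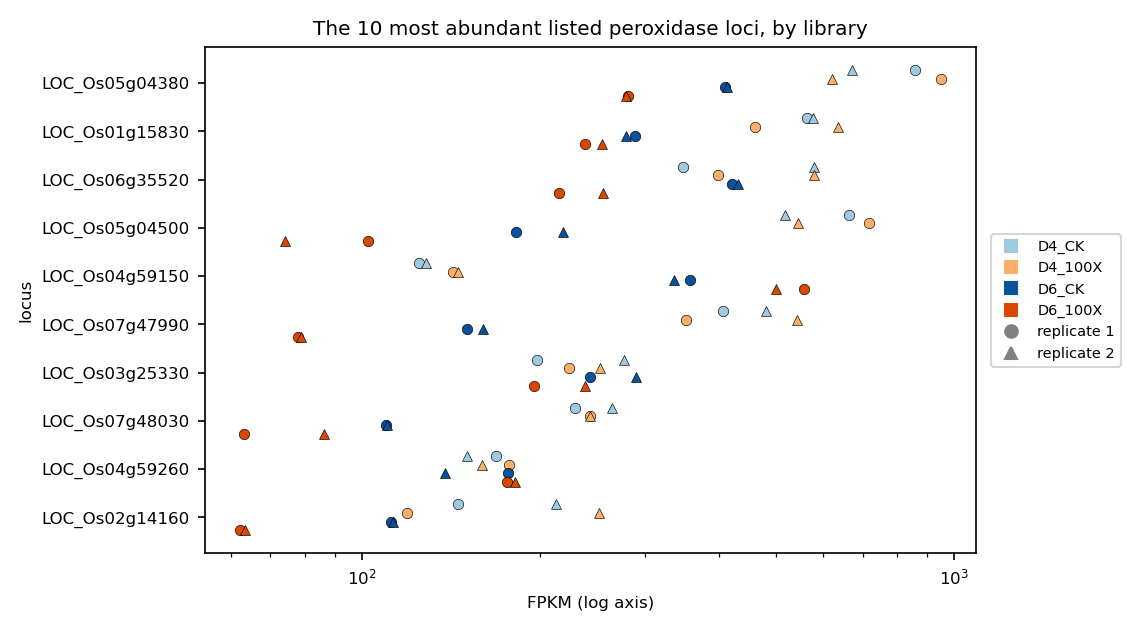
FPKM of the 10 members with the highest mean, on a log axis, with one point per library, colour for the group and shape for the replicate number. LOC_Os04g59150 is highest in the D6_100X libraries (557 and 500.3 FPKM), whereas LOC_Os05g04500 and LOC_Os07g47990 are lowest there.

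Summed over the 60 loci, the family stood at 4948 and 5666 FPKM in D4_CK and at 5090.0 and 6169 in D4_100X. The sum was 4026 and 3955 FPKM in D6_CK and 3139 and 3304 in D6_100X. That is 0.658% and 0.645% of all FPKM in the D6 controls and 0.507% and 0.530% in the D6 carbon dot libraries, so the D6 groups did not overlap, while the D4 groups did. In whole roots, fewer cells of a type and less RNA per cell cannot be told apart.

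The comparison of D6 carbon dot with D6 control roots asked which peroxidase transcripts differed at that sampling. The log2 fold change was below 0 for 40 of the 53 members, against 53.3% of all loci, but none passed the limma threshold (adjusted p of 0.05 over all 22794 loci) in the fit of all 8 libraries, in which 0.522% of all loci were called. At an unadjusted limma p under 0.05 there were 19 lower and 5 higher members, 24 in all, where 15.8% of all loci reached that level and 6.93% did so downwards. Both carbon dot libraries lay below both controls for 34 of the 53 members (64.2%), against 30.5% of all loci, and above both for 8 (15.1%), against 26.8%. The median log2 fold change was -0.43 over the members and -0.02 over all loci. The number of calls depended on how the D4 libraries entered the fit. With only the 4 D6 libraries 14 members passed, 10 lower and 4 higher, where 3.06% of all loci did. With a term for the D4 replicate number, which changes only the estimate of the spread for this comparison, 22 passed, 18 lower and 4 higher, where 6.14% of all loci did, and the 14 were among the 22.

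Of the 5 members with the smallest p at D6, LOC_Os04g59150 and LOC_Os08g02110 were higher with carbon dots. LOC_Os04g59150 had a mean of 529 ± 40.1 FPKM (SD, n = 2) with carbon dots and of 347 ± 15.8 without (log2 fold change 0.60 ± 0.098 SE, limma adjusted p = 0.0611). LOC_Os08g02110 was at 35.4 and 37.6 FPKM against 22.6 and 24.9 (0.60 ± 0.11, adjusted p = 0.0827). LOC_Os03g25360, a low member, was at 2.01 and 2.76 FPKM against 5.92 and 5.28 in the controls (-0.97 ± 0.18, adjusted p = 0.0822). In all 3 the groups were separate, although none of the adjusted p-values passed.

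LOC_Os05g04500 and LOC_Os07g47990, both among the 10 most abundant, were lower with carbon dots. LOC_Os05g04500 was at 102 and 74.2 FPKM against 182 and 219 (log2 fold change -1.19 ± 0.22, adjusted p = 0.0873), and LOC_Os07g47990 at 77.9 and 78.8 FPKM against 151 and 160.3 (-0.98 ± 0.20, adjusted p = 0.104). Fitted on the D6 libraries alone, the adjusted p was 0.0468 for LOC_Os05g04500, 0.0215 for LOC_Os07g47990, 0.0480 for LOC_Os04g59150, 0.0425 for LOC_Os08g02110 and 0.0494 for LOC_Os03g25360. The other lower members called in that fit were LOC_Os07g31610, LOC_Os02g14430, LOC_Os10g02040, LOC_Os06g35520, LOC_Os02g14160, LOC_Os01g73170 and LOC_Os05g04380, and the other higher ones LOC_Os01g22370 and LOC_Os03g13210. LOC_Os02g14430, one of these, had 2.57 and 2.51 FPKM with carbon dots where the controls had 7.98 and 7.82, and LOC_Os03g13210 at 53.5 and 60.6 against 28.8 and 31.6.

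**Figure D2:**
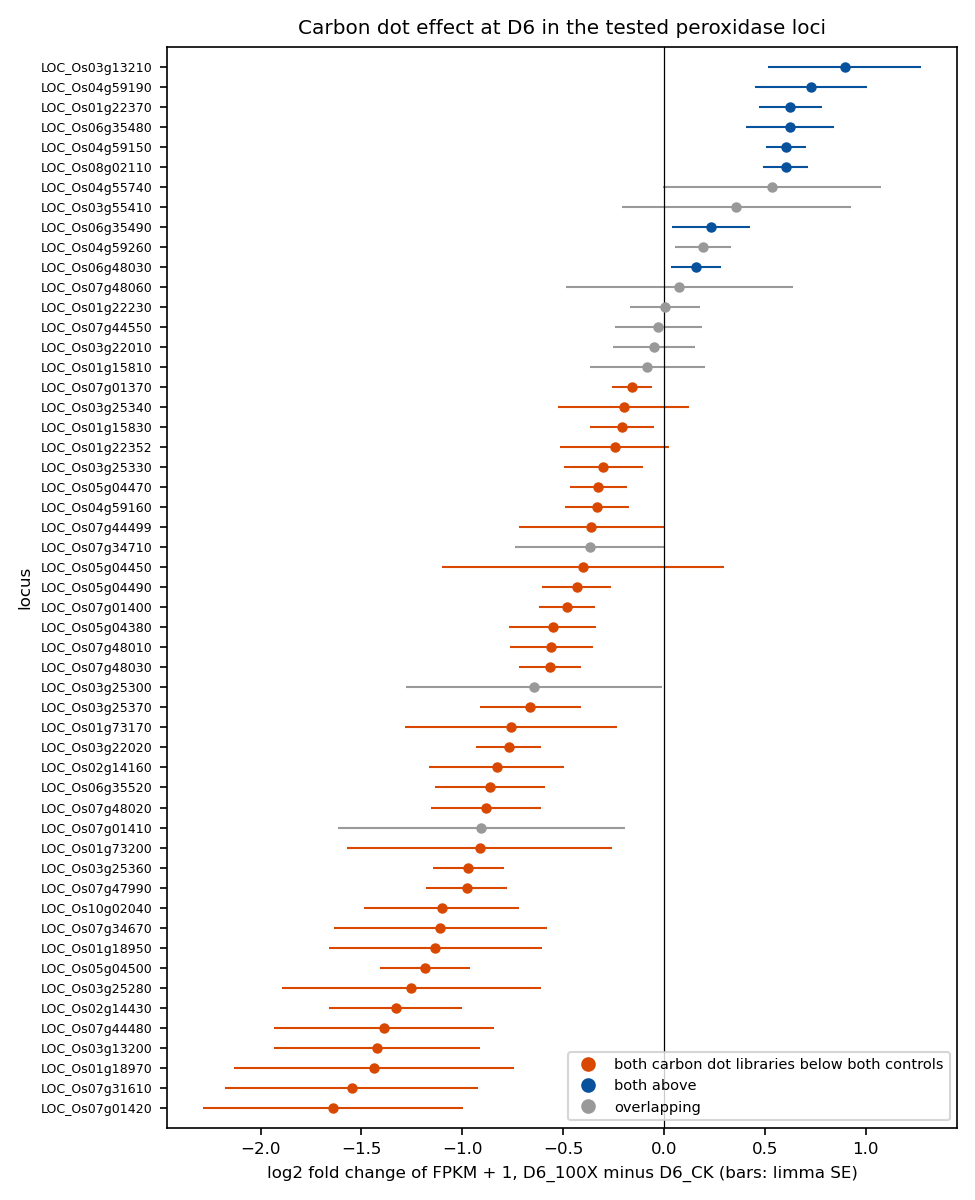
Log2 fold change of FPKM + 1 between D6 carbon dot and D6 control roots for the 53 tested members, with the limma SE as bars and colour for whether the libraries of the groups overlap. Of the 53 points, 40 lie below 0, and the lowest, LOC_Os07g01420 and LOC_Os07g31610, have some of the widest SE.

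At D4 the same comparison gave no difference past the threshold, for the members or for any locus (0% called). The median log2 fold change was 0.08 over the members and -0.01 over all loci, and 1 member, LOC_Os07g01400, had an unadjusted limma p under 0.05, where 1.9% of all loci did. Its carbon dot libraries were at 8.70 and 7.66 FPKM and its control libraries at 12.1 and 10.5 (log2 fold change -0.42 ± 0.14, adjusted p = 1). The libraries were separate for 4 members, higher with carbon dots for 3 (8.7% of all loci) and lower for 1 (10.7% of all loci). The next smallest p-values belonged to LOC_Os06g35490, with a log2 fold change of 0.43, LOC_Os04g59150 with 0.19, LOC_Os07g44550 with 0.40 and LOC_Os01g22352 with -0.45.

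The difference between the effects at D6 and D4 was tested as an interaction, and no member passed (0.00877% of all loci did). At an unadjusted limma p under 0.05 there were 14 members, where 9.27% of all loci reached it. LOC_Os05g04500 had the smallest p, with a difference of log2 fold changes of -1.28 ± 0.31 (adjusted p = 0.334), followed by LOC_Os03g22020 with -0.88, LOC_Os08g02110 with 0.54, LOC_Os07g47990 with -0.96 and LOC_Os01g22370 with 0.70. Across the members the median difference was -0.48, and 40 of 53 were below 0, against 50.4% of all loci. The effect at D6 is therefore not shown to differ from that at D4 for any single member.

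The replicates at D4 were far apart for a part of the family. In 11 of the 53 members the replicate 2 library was at least 2-fold above the replicate 1 library in both D4 groups (on FPKM + 1), which held for 1.07% of all loci, and no member showed the reverse (0.373% of all loci). LOC_Os01g18970 stood at 31.0 and 88.0 FPKM in D4_CK replicates 1 and 2 and at 42.2 and 153 in D4_100X. LOC_Os05g04450 stood at 25.3 and 78.0 in D4_CK and at 30.1 and 121 in D4_100X. These 11 loci were picked by that difference, so their separation by replicate number at D4 is fixed by the choice. It is not known from the labels what the replicate number marks.

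The other loci of this kind were LOC_Os01g18950, LOC_Os01g73170, LOC_Os01g73200, LOC_Os03g25280, LOC_Os07g01410, LOC_Os07g01420, LOC_Os07g31610, LOC_Os07g34670 and LOC_Os07g44480. At D6, where the replicates lay closer, the carbon dot libraries were below both controls in 10 of the 11. That held for 24 of the other 42 tested members and for 30.5% of all loci. The median log2 fold change was -1.13 in the 11 and -0.31 in the other 42. Over all 245 loci with such a D4 difference the median was -0.58, so lower values were not particular to the members. LOC_Os01g18970 stood at 13.4 and 26.1 FPKM in D6_100X against 50.8 and 54.0 in D6_CK. Across the 53 members the mean D4 difference between replicates 2 and 1 and the D6 fold change had a Pearson r of -0.55 and a Spearman rho of -0.55. Across all 22794 loci these were -0.30 and -0.19, so a weaker relation of the same sign ran through the whole table. Genes are not independent replicates, so these correlations over genes are a description. The 2 measures share no library. The median within-group SD on the log2 scale was 0.33 and 0.39 for the members in D4_CK and D4_100X, and 0.13 and 0.16 in D6_CK and D6_100X, against 0.14, 0.15, 0.088 and 0.087 for all tested loci.

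Among the 6 listed root markers, both genes that act in root hairs had the same D4 difference between replicates. EXPA17, which encodes a root hair expansin, was at 18.4 and 48.8 FPKM in D4_CK, 27.5 and 90.4 in D4_100X, 16.8 and 25.0 in D6_CK, and 3.68 and 7.21 in D6_100X. CSLD1, which encodes a cellulose synthase-like protein needed for root hair growth, was at 5.13 and 18.8 FPKM in D4_CK, 10.02 and 24.9 in D4_100X, 11.3 and 11.4 in D6_CK, and 4.41 and 7.51 in D6_100X. Both were more than 2-fold higher in replicate 2 of both D4 groups, and both had lower values in the D6 carbon dot libraries than in the D6 controls, without passing the test (log2 fold change -1.79 and -0.86, limma adjusted p = 0.261 and 0.533). Their D6 values were not alone in this. LOC_Os02g44310, the most abundant of the listed root markers, was at 981 and 1172 FPKM in D6_100X against 1894 and 1894 in D6_CK (-0.82, adjusted p = 0.179). Of the other root markers, the endodermal gene CASP1 stood at 60.3 and 62.1 FPKM in D6_CK and at 58.5 and 73.2 in D6_100X, the silicon channel gene NIP2-1 at 648 and 631 against 584 and 805, and the silicon exporter gene LSI2 at 297 and 316 against 169.8 and 337. At D4, replicate 2 was also the higher one in both groups for LOC_Os02g44310 (2892 and 3549 FPKM in D4_CK, 2761 and 4119 in D4_100X). The same held for NIP2-1 (175 and 296, 213 and 259) and CASP1 (70.3 and 75.1, 52.0 and 100). For LSI2 it held in D4_CK (89.9 and 157) but not in D4_100X (118 and 116). None of these was 2-fold higher in both groups. The part that root hairs play in the peroxidase values was not tested.

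**Figure D3:**
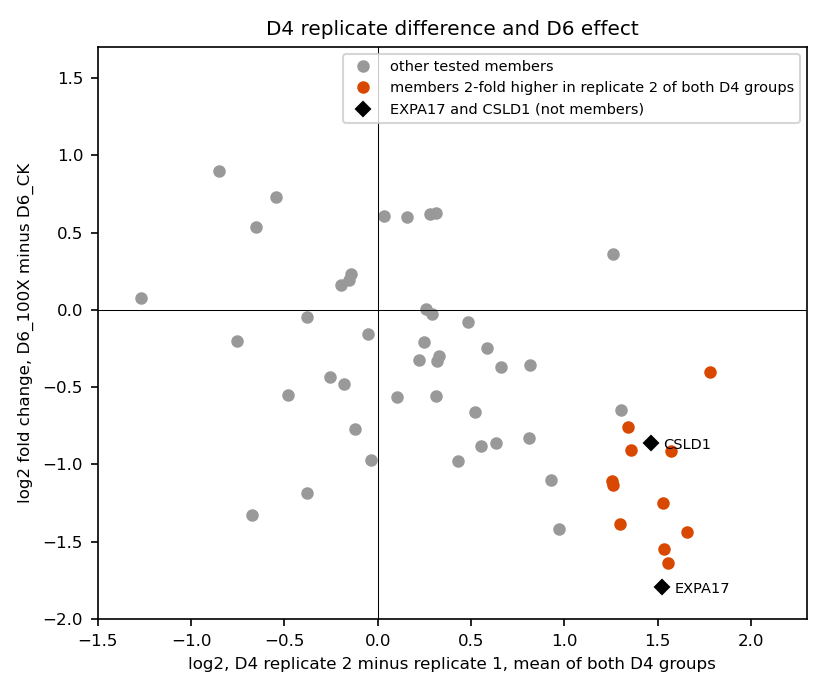
Each point is a tested member, with the log2 difference between D4 replicates 2 and 1 (mean of both D4 groups) on the horizontal axis and the log2 fold change between D6 carbon dot and control roots on the vertical axis. The 11 members with a 2-fold D4 difference, whose horizontal position is set by that choice, lie between -1.64 and -0.40 on the vertical axis. EXPA17 and CSLD1 (diamonds, not members) are at -1.79 and -0.86. The r over the 53 members is -0.55.

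Untreated roots were compared between the samplings to ask which members differed from D4 to D6 without carbon dots. Of the 53, 6 rose and 8 fell, together 26.4%, where 10.1% of all loci were called (5.42% rose and 4.72% fell). LOC_Os05g04500 fell from 591 ± 103 FPKM (SD, n = 2) to 200.3 ± 26.0 (log2 fold change -1.55 ± 0.22, limma adjusted p = 0.0131), and LOC_Os07g47990 from 444 ± 52.5 to 155 ± 6.87 (-1.505 ± 0.20, adjusted p = 0.0113). LOC_Os06g35490, a low member, fell from 4.24 and 4.87 FPKM to 0.935 and 1.40 (-1.36 ± 0.20, adjusted p = 0.0131). The members that fell thus included abundant and rare ones, and the remaining 5 were LOC_Os07g48030, LOC_Os01g15830, LOC_Os03g22010, LOC_Os03g22020 and LOC_Os05g04380. Of these, LOC_Os03g22010 reached 1 FPKM in 3 libraries, all at D4. It entered the tests through the sampling in which it was high, so its fall is a description only.

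Among those that rose in the controls, LOC_Os04g59150 went from a mean of 127 ± 2.74 FPKM to 347 ± 15.8 (log2 fold change 1.45 ± 0.098, adjusted p = 0.00506) and LOC_Os01g22370 from 37.0 ± 4.30 to 102 ± 9.17 (1.44 ± 0.16, adjusted p = 0.00735). LOC_Os03g13210 rose from 11.0 and 7.87 to 28.8 and 31.6 FPKM (1.597 ± 0.38, adjusted p = 0.0461), LOC_Os01g22352 from 9.51 and 17.4 to 33.9 and 31.8 (1.28 ± 0.27, adjusted p = 0.0343), and LOC_Os05g04490 from 10.9 and 11.2 to 26.3 and 26.3 (1.18 ± 0.17, adjusted p = 0.0132). In each of these the D6 libraries lay above both D4 libraries. The remaining one, LOC_Os07g01400, had a log2 fold change of 0.97. The median over the members was -0.03, against -0.05 over all loci. The count of 14 depended on the fit and on single libraries. It was 24 with a term for the D4 replicate number, which leaves the fold changes as they are, where 22.7% of all loci passed. Only LOC_Os04g59150 of the 14 passed under all 17 alternatives. Leaving a library out leaves 1 library in a group, so the counts of those fits are not given.

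In the carbon dot roots the same comparison of D6 with D4 gave 10 members that rose and 20 that fell, together 56.6%, where 29.8% of all loci were called (14.5% rose and 15.3% fell). LOC_Os05g04500 fell from a mean of 631 ± 123 FPKM to 88.2 ± 19.8 (log2 fold change -2.83 ± 0.22, adjusted p = 0.00072) and LOC_Os07g47990 from 447 ± 134 to 78.4 ± 0.599 (-2.46 ± 0.20, adjusted p = 0.000749). LOC_Os03g13200 fell from 21.6 and 62.4 to 7.71 and 3.58 FPKM (-2.58 ± 0.51, adjusted p = 0.0116). LOC_Os07g44480 fell from 18.1 and 53.6 to 3.88 and 5.77 (-2.49 ± 0.54, adjusted p = 0.0162), although its D4 replicates were far apart. The other members that fell had log2 fold changes from -2.73 to -0.78. Among them, LOC_Os03g22010 and LOC_Os07g44499 reached 1 FPKM in 3 libraries each, all at D4. Both entered the tests through the sampling in which they were high, so their falls are a description only.

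LOC_Os03g13210 rose in the carbon dot roots from 16.1 and 6.08 to 53.5 and 60.6 FPKM (2.40 ± 0.38, adjusted p = 0.00544), and LOC_Os04g55740 from 3.90 and 2.03 to 22.4 and 19.3 (2.50 ± 0.54, adjusted p = 0.0156). LOC_Os01g22370 rose from 35.3 ± 6.88 to 158 ± 10.6 FPKM and LOC_Os04g59150 from 144 ± 1.91 to 529 ± 40.1, with log2 fold changes of 2.14 and 1.87. The others that rose were LOC_Os01g22352, LOC_Os04g59190, LOC_Os06g35480, LOC_Os07g01400, LOC_Os05g04490 and LOC_Os08g02110, with log2 fold changes from 0.84 to 1.49. In the controls LOC_Os04g55740 was at 3.83 and 2.15 FPKM at D4 and 26.2 and 7.31 at D6, and did not pass. The median over the members was -0.78 in the carbon dot roots, against -0.04 over all loci. Of the 30 members, 15 passed under every alternative in which they were tested, LOC_Os05g04500, LOC_Os07g47990, LOC_Os03g13210, LOC_Os01g22370 and LOC_Os04g59150 among them.

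The means of these comparisons come from separate libraries, but both tests use the spread estimated over all 8. All 14 members called in the controls were also called in the carbon dot roots with the same direction, which is 100% of the former list and 46.7% of the latter. Over all loci, 91.7% of the control calls and 31.2% of the carbon dot calls were shared, so a large overlap held across the table. A further 16 passed in the carbon dot roots alone, but the difference between the comparisons is the interaction above, which no member passed.

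**Figure D4:**
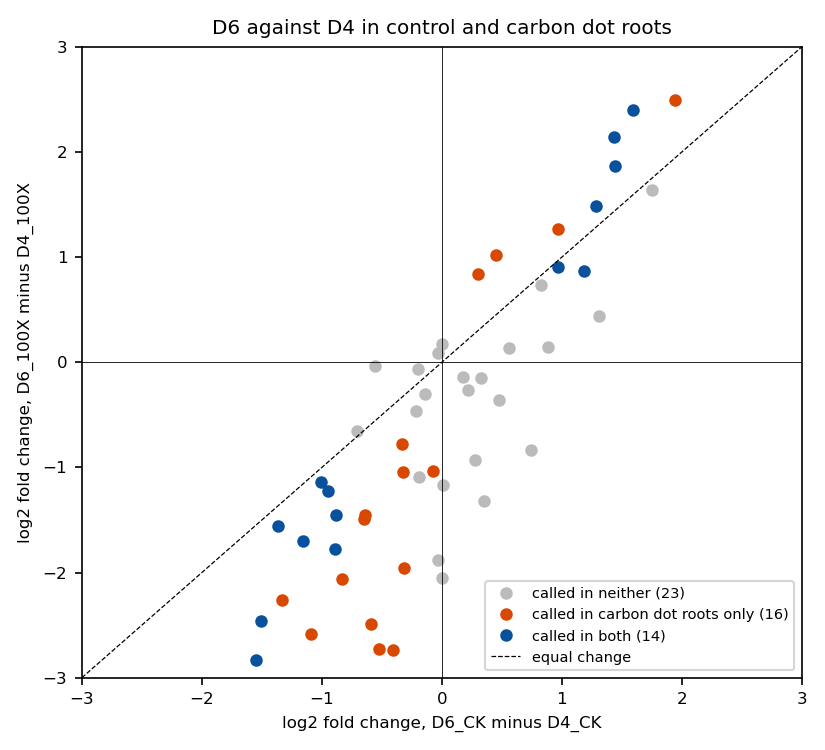
Log2 fold change between D6 and D4 for the 53 tested members, in the controls (horizontal axis) and the carbon dot roots (vertical axis), with colour for the limma call and a dashed line for equal change. The 14 members called in both changed in the same direction in both, and many of the 16 called in the carbon dot roots alone lie below the line.

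Many members are neighbours by locus number. With a difference of at most 150 between successive numbers, 52 of the 60 fell into 15 runs on chromosomes 1 to 7, the longest with 7 loci, and 8 stood alone. Levels within a run differed widely. In the run of 5 from LOC_Os05g04380 to LOC_Os05g04500 the means were between 16.7 and 560.3 FPKM, and in the run of 7 from LOC_Os07g47990 to LOC_Os07g48060 between 0.00414 and 281 FPKM. Neighbours often differed in the sign of the log2 fold change between the samplings. Of the 14 runs with at least 2 tested members, 12 held both signs between D6 and D4 without and 9 with carbon dots. These signs were counted whether or not the change passed, and were not compared with neighbours outside the family. Members passed in both directions in 1 run without and in 4 with carbon dots. In the run from LOC_Os03g13180 to LOC_Os03g13210, LOC_Os03g13200 fell in the carbon dot roots while LOC_Os03g13210 rose. In the run from LOC_Os05g04380 to LOC_Os05g04500, both end loci fell in both treatments while LOC_Os05g04490 rose. The runs from LOC_Os06g35480 to LOC_Os06g35520 and from LOC_Os07g01370 to LOC_Os07g01420 were the other 2 of the 4 with carbon dots. For the carbon dot effect at D6, 9 of the 14 runs had values below 0 throughout, 5 had both signs and none had values above 0 throughout.

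**Figure D5:**
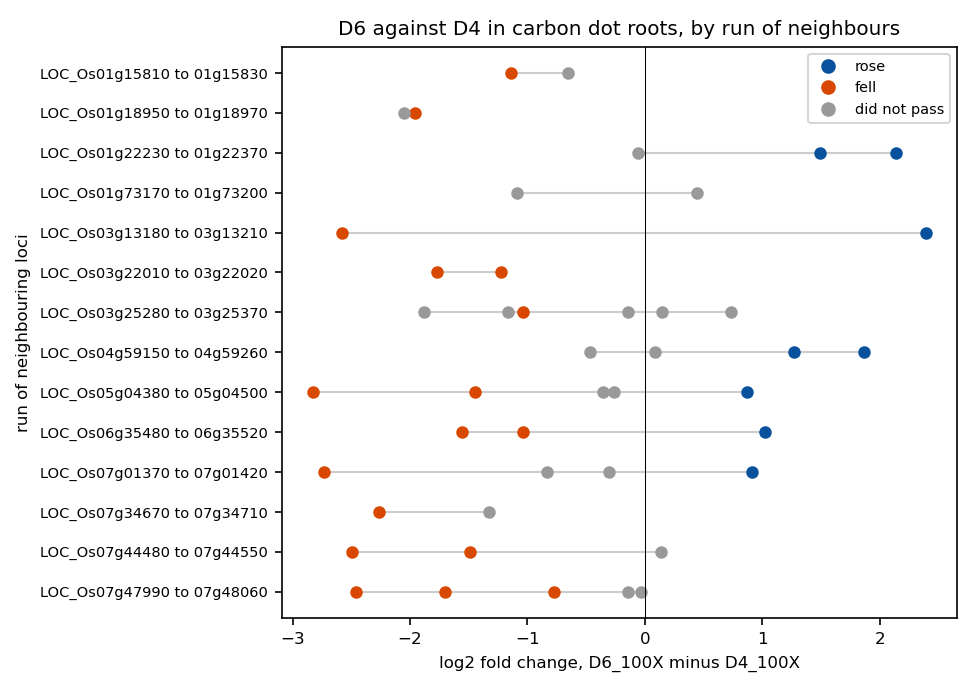
Log2 fold change between D6 and D4 in the carbon dot roots for the tested members of the 14 runs of neighbouring loci, with a line from the lowest to the highest member and colour for the limma call. The run of LOC_Os03g13200 and LOC_Os03g13210 spans from -2.58 to 2.40.

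Close relatives may share reads, and how reads with more than 1 match were counted is not given in the sources used here. Of the 1378 pairs of tested members, LOC_Os07g01420 and LOC_Os07g31610 had the most constant ratio, with FPKM values between 0.933 and 1.05 of each other over the 8 libraries (SD of the log2 ratio 0.0596). LOC_Os07g01420 was at 28.7 and 81.6 FPKM in D4_CK, 44.3 and 139.7 in D4_100X, 32.9 and 40.3 in D6_CK, and 8.18 and 14.7 in D6_100X. LOC_Os07g31610 was at 29.9 and 84.9, 46.0 and 141, 31.4 and 38.8, and 8.77 and 14.5 FPKM in the same order. They lie apart in locus number, and both fell between D4 and D6 in the carbon dot roots (log2 fold change -2.73 for each, adjusted p = 0.0209 and 0.0192), so these may not be independent measurements. Their adjusted p reached 0.114 and 0.106 with single libraries left out. The next pair, LOC_Os04g59260 and LOC_Os06g48030, had an SD of 0.0755 at a ratio between 2.54 and 2.97, and these were among the steadiest members, with log2 fold changes from -0.03 to 0.19 in all 5 comparisons.

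Other genes of the same chemistry were followed as fixed lists. Of the 24 loci listed for the synthesis of monolignols, the alcohols that class III peroxidases couple into lignin, 22 were tested, and none passed at D4, at D6 or in the interaction. At D6 their median log2 fold change was -0.17, with 10 lower without overlap (45.5%, against 30.5% of all loci) and 2 higher (9.09%, against 26.8%), and a smallest adjusted p of 0.0894. Between D4 and D6, 4 rose and none fell in the controls, and 5 rose and 5 fell in the carbon dot roots. These are 18.2% and 45.5% of the 22, where 10.1% and 29.8% of all loci were called. HCT2, an acyltransferase of the pathway, rose in both (log2 fold change 0.67 and 0.76), and 4CL4 and CAD2, which encode a ligase and the dehydrogenase of the last step, fell in the carbon dot roots (-0.51 and -0.49).

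Of the 9 listed RBOH loci, which encode the oxidases that supply apoplastic superoxide and hence hydrogen peroxide, 8 were tested and none passed for the carbon dot effect at D4 or D6. Between D6 and D4, 1 rose and 1 fell in the controls, and 2 rose and 1 fell in the carbon dot roots (25.0% and 37.5% called, against the same 10.1% and 29.8%), where RBOHB fell by 0.51 on the log2 scale. Of the 11 catalases and ascorbate peroxidases, which remove hydrogen peroxide inside the cell, 9 were tested. None passed for the carbon dot effect, where the smallest adjusted p at D6 was 0.519 and the median log2 fold change -0.05. In the carbon dot roots CATA fell (-0.70) and APX2 and CATB rose (0.59 and 0.54) between D4 and D6 (33.3% called, against 29.8%), and none passed in the controls. Secondary wall cellulose synthases, which mark tissue that lignifies, fell between D4 and D6 in both treatments. CESA4 had log2 fold changes of -1.16 without and -2.02 with carbon dots, and -0.88 for carbon dots against control at D6, which did not pass. The part of these genes' tissues in the peroxidase values was not tested.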

How the data were processed

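The deposited table gives FPKM computed by the authors, 1 column per library. The submitters' processing notes name fastp, HISAT2, SAMtools and featureCounts 1.6.4. Settings, genome build, annotation, strand and the handling of multiple matches: not given in the sources used here.

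The FPKM steps gave a divisor for each library, nearly the same in all (largest difference 0.0098%). They also gave a whole number for each locus above 0 (within 0.01), at the shortest gene length that fitted. Per library, the whole numbers summed to between 98.6% and 98.66% of the divisor, a lower bound, because longer lengths would give larger numbers. Sorted, these numbers differed between the 8 libraries by a median of 0.101% at ranks 1001 to 5000, the smallest of the bands of ranks examined. The largest was 0.892%, at ranks 15001 to 20000. A single locus with a mean of at least 100, by contrast, ranged by a median of 45.3%. Such equal distributions are what quantile normalisation produces, though no such step is named in the sources used here. The numbers were therefore not used as reads, and a fold change reflects the rank of a locus within its library.

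Tests used limma 3.58.1 in R 4.3.3 (lmFit, eBayes with trend) on log2(FPKM + 1), which understates changes of low genes. The 4 group means were fitted over all 8 libraries (4 residual degrees of freedom) for the loci with 1 FPKM in at least 2 libraries. The Benjamini-Hochberg adjustment ran over all of these loci. The script was tested on simulated data.

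Members were named by rule: the 10 highest means, up to 8 called loci per comparison by size of change, and the 5 smallest p for the effects at D4 and D6 and the interaction. Further members were named after their values were seen. The members, lists and tests were chosen with earlier results of these data known. Of 62 loci in the other lists, all recalled from published identifiers, 37 had their symbol in the reference table (RefSeq, ASM3414082v1) on the same chromosome within 0.1 chromosome lengths, and only those are named.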

Additional observations from a re-analysis of the deposited data

How the results depend on the processing

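The number of members called at D6 was 0 in the main fit, 14 with only the groups compared, 22 with a replicate block within D4 only and 0 to 2 with single libraries left out. For D6 against D4 in the controls the main count of 14 became 24 with the replicate block within D4 only and 1 to 17 with single libraries left out. In the carbon dot roots the main count of 30 became 16 to 36 with single libraries left out. The counts at D4 and in the interaction were 0 under every alternative run. No change called for a named member changed sign under any alternative. A pseudocount of 0.1, both other filters, median centring and robust eBayes kept each count within 1.5 times the main one.

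Deviations of same-numbered libraries correlated at 0.60 between the D4 groups, across genes, and at -0.11 to 0.14 otherwise, so the numbers are not shown to pair the samples over all groups, although within D4 same-numbered libraries deviated together. The replicate block over all 8 libraries called 17 members (11.4% of all loci) without and 34 (31% of all loci) with carbon dots, and 0 at D4, at D6 and in the interaction. A crossed replicate block within D6 only, chosen after seeing the data, called 0 members at D6. Between the samplings it called fewer members than the main fit, both without and with carbon dots. The share of all loci called in that fit is not given here. The alternative with limma voom was not run, because the whole numbers behind the FPKM are not reads.

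The median log2 fold change of the members between D4 and D6 in the controls, -0.03, was -0.31 without D4_CK replicate 1 and 0.28 without D4_CK replicate 2. In the carbon dot roots, -0.78 became -0.41 without a filter, -0.46 with a mean of at least 5 FPKM and -0.35 without D4_100X replicate 2. Depth is unknown, so no counting error is given.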

Other observations

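Equal whole numbers recur behind the FPKM values, and the sorted whole numbers were nearly the same in every library, as given above. The abundant phenylalanine ammonia-lyase locus LOC_Os02g41630, which opens the route to lignin, stood between 2381.36 and 2381.59 FPKM. Its whole number was the same in all 8 libraries. LOC_Os02g41630 was the single locus of 17753 with a mean of at least 100 for which this held. The size of its number is not given, because the length used was only the shortest that fitted. The member LOC_Os06g35520 had equal numbers in replicate 2 of both D4 groups, 18991 at the shortest length that fitted. With such lengths, 21866 stood for LOC_Os01g15830 in D4_100X replicate 2 and for LOC_Os04g59150 in D6_100X replicate 1. The match between these 2 loci holds only if both lengths are right.

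Over the members, no locus had non-overlapping carbon dot effects of opposite sign at D4 and D6, which 1103 of the 22794 tested loci had. Dixon's outlier test does not apply to groups of 2 libraries.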
